A study of Mus musculus with 12 samples.

Results

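The 10 genes described here encode enzymes, a cofactor and a transporter that build the acylceramides of the epidermis and bind them to the corneocyte surface. They were chosen as a known pathway, by gene symbol in the deposited count table: Alox12b, Aloxe3, Abca12, Cers3, Cyp4f39, Elovl4, Pnpla1, Abhd5, Ugcg and Sdr9c7. All 10 symbols were found, each with 1 identifier, among the 46078 genes of the table, and all 10 passed the filter on low counts that left 14582 genes for testing.

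RNA was taken from the skin epidermis of newborn mice, in 12 libraries of 4 genotypes with 3 mice each. K14-Cre, in which the keratin 14 promoter drives Cre recombinase, was carried by every group and acts in basal keratinocytes, so that their descendants in hair follicles and sebaceous glands are recombined too. Llgl cKO Trp53 het mice carried K14-Cre with floxed Llgl1 and Llgl2 on both alleles and a single floxed Trp53 allele. Llgl cKO mice carried K14-Cre with floxed Llgl1 and Llgl2, and their label names no Trp53 allele. Trp53 het mice carried K14-Cre and a single floxed Trp53 allele, and control mice K14-Cre alone. Llgl1 and Llgl2 are the mouse homologues of the Drosophila polarity gene lethal giant larvae, and Trp53 encodes the tumour suppressor p53. The series asked how loss of both Llgl genes changes epidermal expression with and without a single Trp53 allele, and the same comparisons were made here for the lipid genes.

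Acylceramides are the lipids that seal the outer skin. In the upper epidermis an ultra-long fatty acid is made, hydroxylated at its far end, joined to a sphingoid base to give a ceramide, and esterified there with linoleic acid. The product is glucosylated, loaded into lamellar granules and secreted, after which its linoleate is oxidised by lipoxygenases and the ceramide is bound to proteins of the cornified envelope. The resulting layer of bound lipid is the corneocyte lipid envelope, and inherited defects in the human counterparts of most of these genes cause congenital ichthyosis.

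Libraries held from 6738720 to 14509507 counts. Llgl2 stood at 6.12 to 12.4 CPM (counts scaled to library size by the TMM method) in the 6 libraries of both Llgl cKO groups and at 65.4 to 109.9 CPM in the other 6. Llgl1 stood at 187 to 280.1 CPM in both Llgl cKO groups and at 115 to 173 CPM in the others, a level that says nothing of the floxed exons, since reads were counted over whole genes. Trp53 was at 98.3, 67.8 and 65.9 CPM in Llgl cKO Trp53 het and 61.8, 60.9 and 115 CPM in Trp53 het, against 121, 122 and 112 CPM in Llgl cKO and 130.5, 109 and 123 CPM in control. The library labelled Trp53 het 3 therefore lay inside the control range for Trp53, and the results that include it are also given without it where that changes them. By Xist and Y-linked counts 5 libraries came from females (Llgl cKO Trp53 het 1, Llgl cKO 1, Trp53 het 3, and control 2 and 3) and 7 from males. Epidermal markers were abundant in every library, with Krt5 at 7395 to 10768 CPM, Krt10 at 21731 to 45003 CPM and Lor at 4159 to 13126 CPM. Among the defining granular layer markers Flg (0.171 to 4.15 CPM) and Krt2 (0 to 0.618 CPM) were at or near 0, and the summed endothelial markers lay at 0.491 to 1.69 CPM.

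By edgeR none of the 10 genes was called between genotypes, and DESeq2 called 1, Sdr9c7, in the average Llgl effect. Most of them instead varied together from library to library inside each genotype. Over all 12 libraries, genotype differences included, Abca12, Sdr9c7 and Alox12b correlated least with the other members. Mean Abca12 and Sdr9c7 were lower and mean Alox12b higher in the Llgl cKO groups, by amounts that edgeR did not call. Among 74 tested genes of the neighbouring lipid and envelope pathways, edgeR called 8 in the average Llgl effect. Most of these calls recurred in comparisons of the Llgl cKO Trp53 het group, while Llgl cKO against control gave 1, the ceramidase gene Acer2.

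The promoters of Sdr9c7, Alox12b and Abca12 are shown because these members correlated least with the others over the 12 libraries. That of Elovl4, which correlated closely, is shown beside them. Each is the genome sequence before the gene's start in RefSeq, cut where the annotated gene begins, on the mouse build GRCm38.p6 and written 5′ to 3′ on the strand of the gene. The windows are chr10:127898285-127898517 on the plus strand, chr11:69156822-69156988 on the plus strand, chr1:71414911-71415160 on the minus strand and chr9:83806306-83806555 on the minus strand. Capitals mark matches to the motifs searched.
Sdr9c7: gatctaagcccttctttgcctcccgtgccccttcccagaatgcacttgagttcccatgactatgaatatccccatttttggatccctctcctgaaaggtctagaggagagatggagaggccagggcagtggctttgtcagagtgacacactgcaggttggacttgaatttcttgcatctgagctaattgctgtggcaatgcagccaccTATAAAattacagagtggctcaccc
Alox12b: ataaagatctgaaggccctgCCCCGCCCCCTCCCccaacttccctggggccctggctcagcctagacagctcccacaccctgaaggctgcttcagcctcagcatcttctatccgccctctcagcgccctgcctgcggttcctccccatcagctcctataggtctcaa
Abca12: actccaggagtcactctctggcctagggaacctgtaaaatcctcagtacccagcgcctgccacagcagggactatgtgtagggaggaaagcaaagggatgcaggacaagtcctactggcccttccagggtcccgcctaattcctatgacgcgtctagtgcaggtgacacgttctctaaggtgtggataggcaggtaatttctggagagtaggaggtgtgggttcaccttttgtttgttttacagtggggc
Elovl4: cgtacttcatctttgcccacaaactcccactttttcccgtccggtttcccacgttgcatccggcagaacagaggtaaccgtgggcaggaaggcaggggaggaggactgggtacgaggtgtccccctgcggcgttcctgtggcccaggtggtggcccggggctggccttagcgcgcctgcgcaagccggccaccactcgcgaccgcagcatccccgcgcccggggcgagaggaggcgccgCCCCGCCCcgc

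In RefSeq 9 of the 10 genes had a promoter entry, and the 250 bases before each start were searched on both strands for 6 motifs. TATAAA, the TATA box, was found in Sdr9c7 alone, starting 42 bases before its RefSeq start, where 12.4% of all 32851 promoter windows hold it. GGGNGGGG, the GC-rich element of KLF and SP factors, was found in Alox12b, Elovl4 and Pnpla1 and is held by 30.8% of all windows. The Alox12b matches begin 230 and 224 bases before its start and overlap. CCAAT, the NF-Y element, was found in Pnpla1 alone, against 33.8% of all windows. AACCGGTT of Grainyhead factors, TGANTCA of AP-1 and AGATAA of GATA factors were in none of the 9 windows and are held by 0.116%, 6.75% and 9.99% of all windows. Over the whole window the GC content was 49.6% in Sdr9c7, 66.0% in Alox12b, 53.2% in Abca12 and 69.6% in Elovl4.

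All 10 genes were well expressed. The mean over the 12 libraries placed them between the 80.5th percentile (Cyp4f39) and the 99.3rd percentile (Elovl4) of the tested genes, and each had between 612 and 12172 counts in a library. Per length of annotated exon, levels were highest for Elovl4 at 249.7 ± 47.1 CPM per kb and Alox12b at 179 ± 59.2 CPM per kb (SD over 12 libraries). Sdr9c7 at 71.4 ± 16.8, Aloxe3 at 63.4 ± 17.9 and Cers3 at 56.2 ± 11.5 CPM per kb followed. Pnpla1 at 38.1 ± 8.80, Abca12 at 31.4 ± 6.18, Cyp4f39 at 28.4 ± 7.35, Ugcg at 25.1 ± 4.37 and Abhd5 at 24.6 ± 3.96 CPM per kb were lowest. Alox12b exceeded Sdr9c7, and Cers3 exceeded Pnpla1, in 12 of 12 libraries, whereas Sdr9c7 exceeded Aloxe3 in 7 of 12 and Cyp4f39 exceeded Ugcg in 7 of 12, so those neighbours in the order do not differ beyond their spread. Exon lengths are unions over annotated transcripts, so a gene with long rarely used exons appears lower on this scale.

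The chain-building enzymes come first in the pathway. Elovl4, the elongase that makes ultra-long fatty acids (ENSMUSG00000032262, chromosome 9, 83778692 to 83806277 on the minus strand, GRCm38), stood at 505, 882 and 678 CPM in Llgl cKO Trp53 het, 836, 584 and 785 in Llgl cKO, 967, 877 and 646 in Trp53 het, and 792, 876 and 638 in control. Its lowest 4 libraries were 1 from each genotype, and all groups overlapped. Cyp4f39, the cytochrome P450 that hydroxylates the far end of these fatty acids (ENSMUSG00000061126, chromosome 17, 32452723 to 32493320 on the plus strand), stood at 55.9, 115 and 85.5 CPM in Llgl cKO Trp53 het, 80.3, 60.4 and 93.1 in Llgl cKO, 105, 90.6 and 57.4 in Trp53 het, and 100.1, 79.2 and 51.4 in control. The highest and lowest libraries of Llgl cKO Trp53 het enclosed all but 1 of the others, control 3. Cers3, the ceramide synthase that joins the ultra-long chain to a sphingoid base (ENSMUSG00000030510, chromosome 7, 66743504 to 66823691 on the plus strand), stood at 128, 207 and 189 CPM in Llgl cKO Trp53 het, 211, 141 and 209 in Llgl cKO, 197, 211 and 129 in Trp53 het, and 207, 227 and 138 in control. The 4 group means lay within 175 to 191 CPM, close together beside SDs of 39.9 to 47.0 CPM.

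Esterification and glucosylation follow. Pnpla1, the transacylase that puts linoleate on the hydroxylated ceramide (ENSMUSG00000043286, chromosome 17, 28858411 to 28890309 on the plus strand), stood at 139.9, 220.4 and 149 CPM in Llgl cKO Trp53 het, 176, 136 and 210.3 in Llgl cKO, 242, 209.9 and 137 in Trp53 het, and 253, 189.7 and 146 in control. Its means were a little lower in both Llgl cKO groups, and the groups overlapped. Abhd5, a lipase cofactor that works with Pnpla1 and with the triacylglycerol lipase Pnpla2 (ENSMUSG00000032540, chromosome 9, 122351608 to 122381524 on the plus strand), stood at 124, 188 and 142 CPM in Llgl cKO Trp53 het, 155, 113 and 141 in Llgl cKO, 171, 165 and 116 in Trp53 het, and 164, 153 and 125 in control. Ugcg, the glucosylceramide synthase (ENSMUSG00000028381, chromosome 4, 59189257 to 59222833 on the plus strand), stood at 89.2, 139.8 and 118 CPM in Llgl cKO Trp53 het, 147, 111 and 142 in Llgl cKO, 155, 151 and 105 in Trp53 het, and 141, 159 and 110.4 in control. Both overlapped among all 4 genotypes. Antisense transcripts share 644 exonic bases with Pnpla1 and 950 with Abhd5, and these antisense genes held at most 4 and 15 counts in a library. The strand setting of the counting is not given. Whether reads in the shared bases were left out of the counts of Pnpla1 and Abhd5 was not tested.

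Abca12, the transporter that loads glucosylated acylceramide into lamellar granules (ENSMUSG00000050296, chromosome 1, 71242276 to 71414910 on the minus strand), stood at 320.2, 431 and 467 CPM in Llgl cKO Trp53 het, 371, 319 and 534 in Llgl cKO, 573, 518 and 451 in Trp53 het, and 581, 549 and 457 in control. Of the 6 libraries of the Llgl cKO groups 4 were below each of the other 6, while Llgl cKO Trp53 het 3 and Llgl cKO 3 lay among them. The log2 fold change averaged over Trp53 genotype, with 6 libraries of the Llgl cKO groups against 6 others, was -0.36 (95% interval -0.68 to -0.04), and it was not called (edgeR quasi-likelihood test, Benjamini-Hochberg adjusted p = 0.220).

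The oxidation enzymes act last. Alox12b, the lipoxygenase that first oxidises the linoleate of the acylceramide (ENSMUSG00000032807, chromosome 11, 69156989 to 69169792 on the plus strand), stood at 361, 748 and 563 CPM in Llgl cKO Trp53 het, 512, 324 and 565 in Llgl cKO, 473, 397 and 251 in Trp53 het, and 435, 329.7 and 277 in control. Aloxe3, the partner lipoxygenase that isomerises the product (ENSMUSG00000020892, chromosome 11, 69125896 to 69149115 on the plus strand), stood at 311, 480.2 and 374 CPM in Llgl cKO Trp53 het, 406, 314 and 455 in Llgl cKO, 525, 499.6 and 234 in Trp53 het, and 603, 423 and 245 in control. These neighbouring genes lie on the chromosome that also carries Trp53, Llgl1 and Llgl2, and start 423 and 454 kb before the Trp53 start (69580359). Alox12b was highest in Llgl cKO Trp53 het 2, and each Llgl cKO group had 1 library inside the range of the other genotypes. Aloxe3 had its lowest values in Trp53 het 3 and control 3 and its highest in control 1, so the Llgl cKO groups lay inside the range of the others.

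Sdr9c7, the dehydrogenase that oxidises the lipoxygenase product to a reactive form that can bind protein (ENSMUSG00000040127, chromosome 10, 127898518 to 127911761 on the plus strand), stood at 156, 229 and 144 CPM in Llgl cKO Trp53 het, 185, 145 and 205 in Llgl cKO, 280.4, 263 and 218 in Trp53 het, and 277, 274 and 229 in control. Every library of both Llgl cKO groups was below the lowest control (229 CPM), although Llgl cKO Trp53 het 2 rounds to the same value, and that library also reached above the lowest Trp53 het library (218 CPM). Means were 176 ± 45.9 CPM in Llgl cKO Trp53 het, 178 ± 30.3 in Llgl cKO, 254 ± 32.2 in Trp53 het, against 260.0 ± 27.02 in control (SD, n = 3 each).

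**Figure D1:**
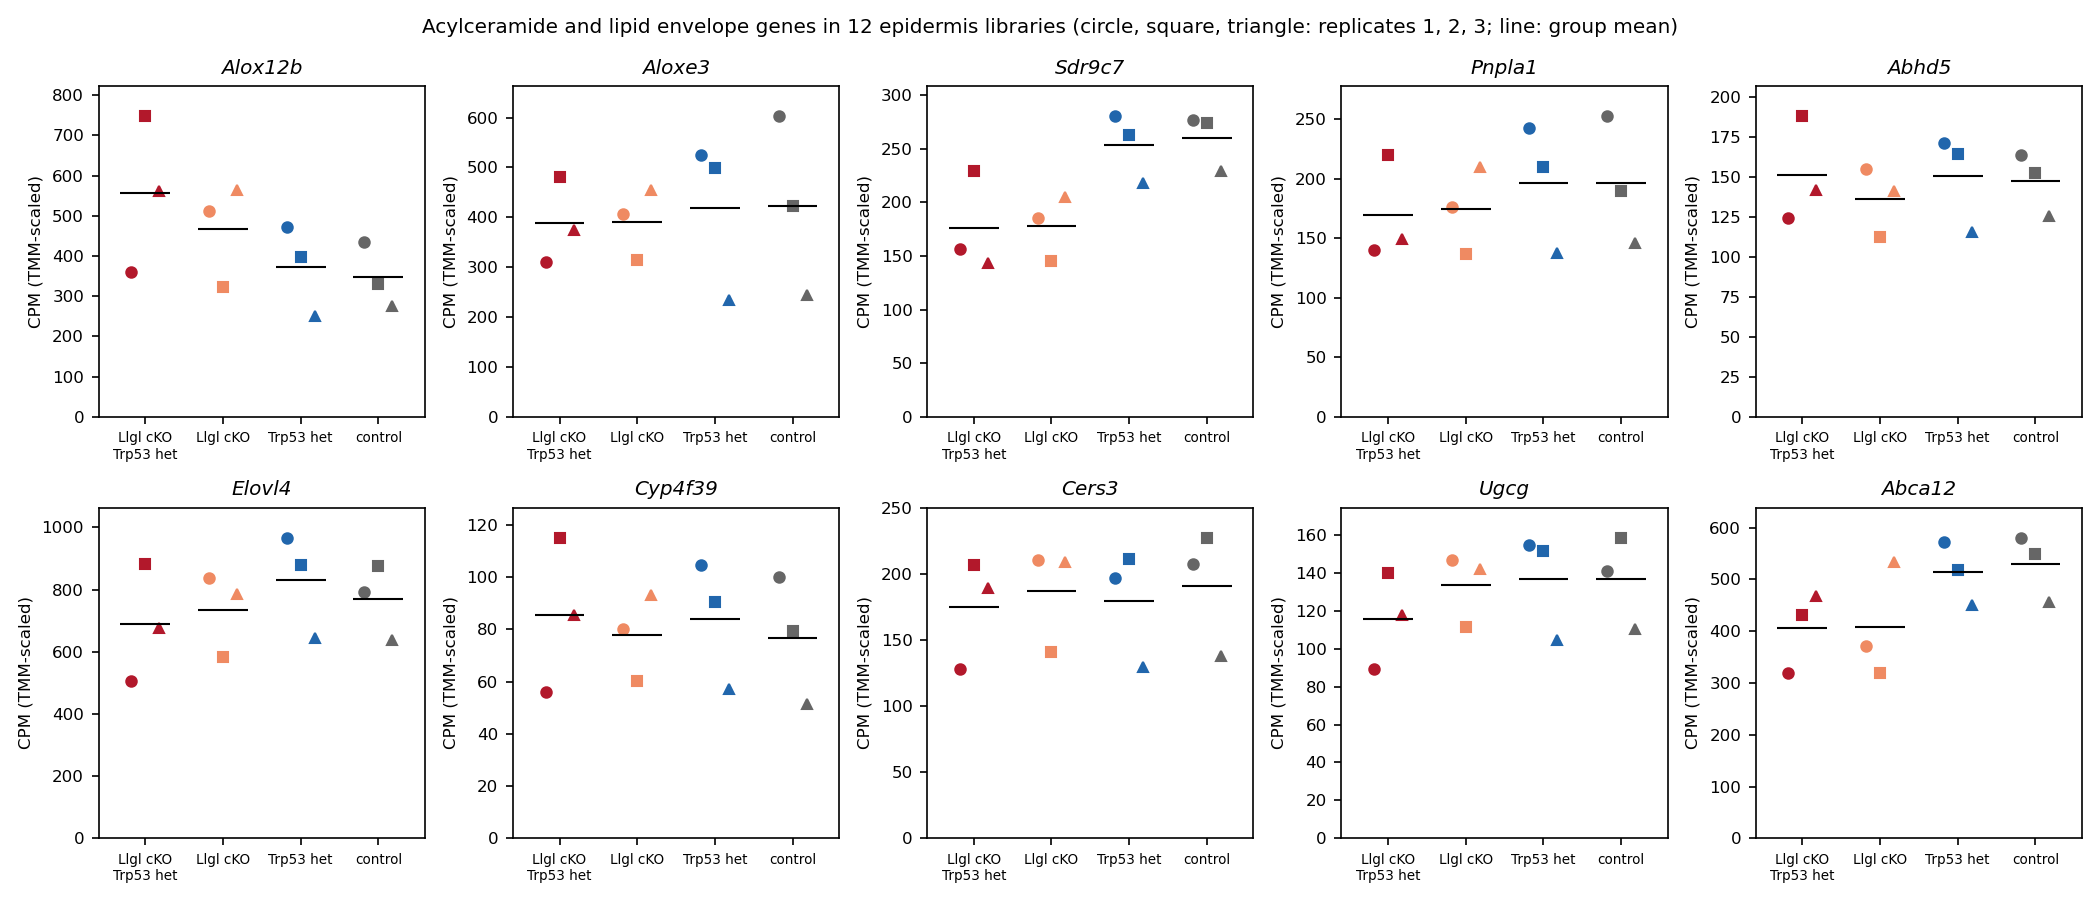
CPM of the 10 genes in each of the 12 libraries, by genotype, with a line at each group mean and a separate vertical axis from 0 for each gene. Sdr9c7 lies at 144 to 229 CPM in the Llgl cKO groups and 218 to 280.4 CPM in the others, while the other 9 genes overlap more widely.

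The genotype comparisons were tested for all 14582 genes in 1 edgeR model of the 12 libraries, with p adjusted by Benjamini-Hochberg and 0.05 as the threshold for a call. In Llgl cKO Trp53 het against control 0 of the 10 genes were called, where 1.25% of all genes tested were, and 1 (Sdr9c7) had an unadjusted p below 0.05, against 13.9% of all genes. In Llgl cKO against control 0 of 10 were called (0.226% of all genes), with 1 again at the unadjusted level (6.31% of all genes). In Llgl cKO Trp53 het against Trp53 het 0 of 10 were called (1.36% of all genes), with 1 at the unadjusted level (15.4%). DESeq2 called 0 of 10 in each of the 3, against 4.42%, 0.782% and 4.96% of its genes. Averaged over Trp53 genotype, the Llgl effect called 0 of 10 by edgeR (3.33% of all genes), had 3 of 10 at the unadjusted level (18.2%), and called 1, Sdr9c7, by DESeq2 (7.1%).

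Sdr9c7 gave the smallest p of the set in each of these comparisons. Its log2 fold change was -0.56 in Llgl cKO Trp53 het against control (95% interval -0.98 to -0.14, adjusted p = 0.213, edgeR), -0.54 in Llgl cKO against control (-0.96 to -0.12, adjusted p = 0.613) and -0.53 in Llgl cKO Trp53 het against Trp53 het (-0.95 to -0.11, adjusted p = 0.211). The average Llgl effect was -0.53 (-0.83 to -0.24), a level of 0.690 times that of the other groups, with an adjusted p of 0.0563 by edgeR. DESeq2 gave -0.54 with an adjusted p of 0.00732. The edgeR result turned on single choices. Its adjusted p was 0.0425 with sex as a term and 0.0434 when control 3 was left out. It was 0.0258 when Llgl cKO Trp53 het 2 was left out and 0.0390 when Trp53 het 3 was. Of the 21 alternatives run, DESeq2 included, 7 called Sdr9c7, and adjusted p reached 0.145 (edgeR) in the rest. The log2 value stayed between -0.65 and -0.47. Control and Llgl cKO libraries did not overlap for Sdr9c7, and neither did control and Llgl cKO Trp53 het, a pattern that 9.8% and 17.1% of all genes tested also showed.

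Alox12b had the largest positive values. Its log2 fold change was 0.68 in Llgl cKO Trp53 het against control (95% interval -0.00 to 1.37, adjusted p = 0.363, edgeR), 0.43 in Llgl cKO against control (-0.26 to 1.11, adjusted p = 0.938) and 0.58 in Llgl cKO Trp53 het against Trp53 het (-0.11 to 1.26, adjusted p = 0.418). The average Llgl effect was 0.50 (0.02 to 0.99, adjusted p = 0.256). The partner lipoxygenase Aloxe3 had an average Llgl effect of -0.11 (-0.65 to 0.43, adjusted p = 0.857), so for neither enzyme of the pair was a change detectable with 3 mice a group.

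The remaining 7 genes had average Llgl effects between -0.36 (Abca12) and 0.02 (Cyp4f39) on the log2 scale. Elovl4 was at -0.17 (95% interval -0.52 to 0.19), Pnpla1 at -0.19 (-0.60 to 0.22), Ugcg at -0.14 (-0.46 to 0.18), Abhd5 at -0.05 (-0.36 to 0.25), Cers3 at -0.03 (-0.43 to 0.37) and Cyp4f39 at 0.02 (-0.46 to 0.51). These intervals leave room for changes of either sign. The median of the 10 log2 fold changes was -0.13, with 2 positive and 8 negative, where the median of all genes tested was -0.00. In Llgl cKO Trp53 het against control that median was -0.14, and 0.02 without the libraries Llgl cKO Trp53 het 1 and Trp53 het 3. Of these only Llgl cKO Trp53 het 1 belongs to the groups compared, and its summed level of the 10 genes was the lowest in its group. The lowest control library, control 3, was kept, so this removal was one-sided, and it was chosen after seeing the data.

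The comparisons of Trp53 gave no call. In Trp53 het against control, Llgl cKO Trp53 het against Llgl cKO, the average Trp53 effect and the interaction, 0 of 10 genes were called by edgeR, 0 by DESeq2 and 0 at an unadjusted p below 0.05. The shares of all genes called by edgeR were 0%, 0%, 0% and 0%, and those at the unadjusted level were 0.432%, 5.12%, 2.17% and 2.94%. By DESeq2 the share of all genes was 0.364% in Llgl cKO Trp53 het against Llgl cKO and 0% in the other comparisons of Trp53. The log2 fold changes of the 10 genes lay between -0.09 and 0.13 for Trp53 het against control, and between -0.21 and 0.26 for Llgl cKO Trp53 het against Llgl cKO. With 3 mice a group the 95% intervals of the first comparison reached from -0.78 to 0.83.

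**Figure D2:**
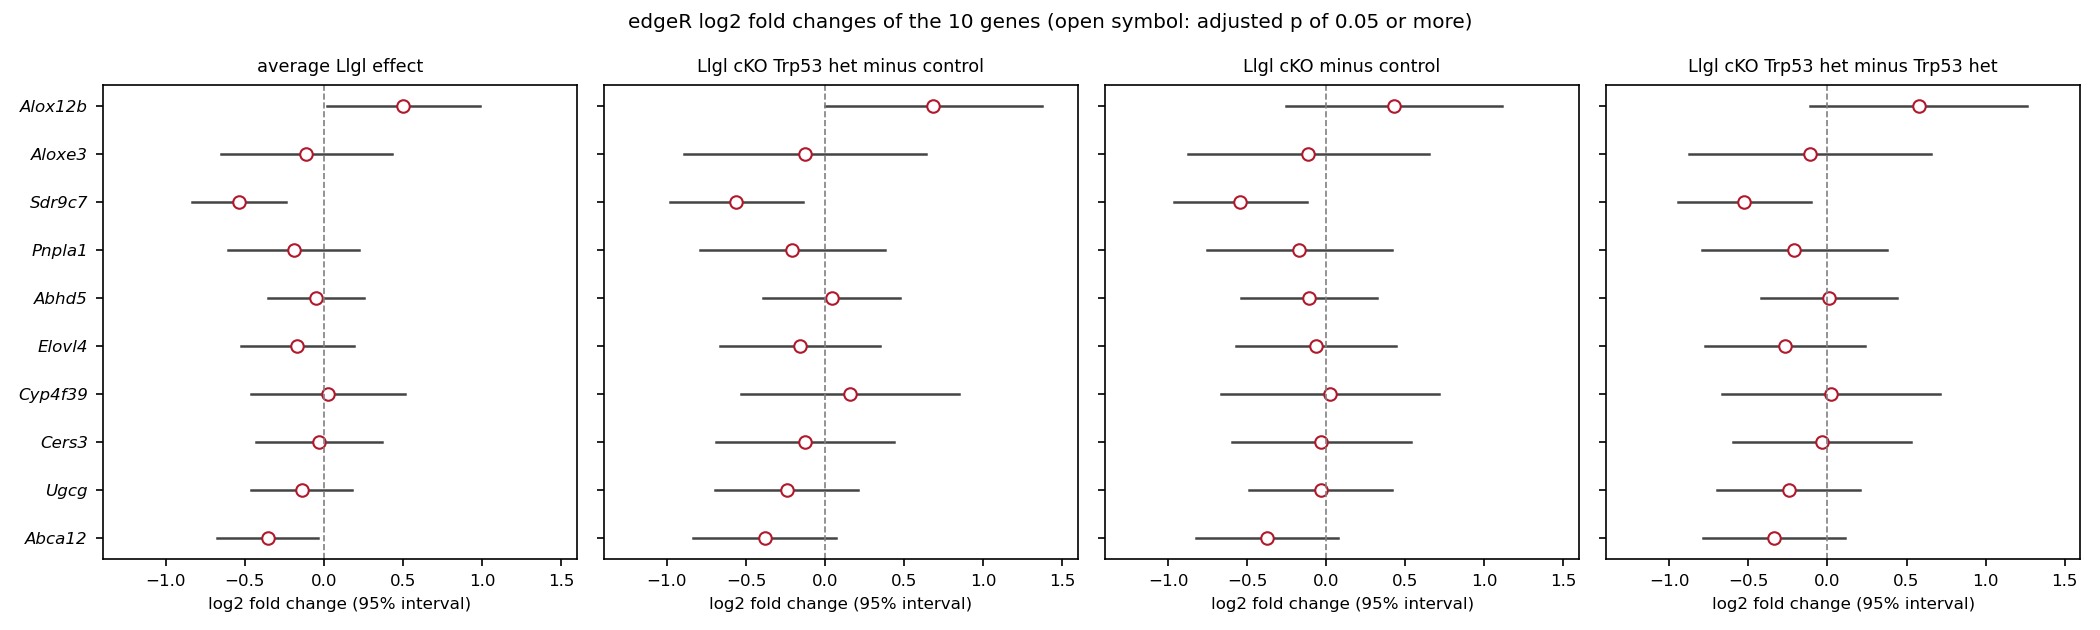
Log2 fold change of each of the 10 genes with its 95% interval (edgeR) in the average Llgl effect and 3 pairwise comparisons, positive where the Llgl cKO group was higher. All symbols are open, since no gene was called, and the intervals of Sdr9c7 lie below 0 in all 4 panels.

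The spread inside the genotypes was shared by the genes. The level of each gene was taken as log2 CPM relative to its own mean over the 12 libraries and averaged over the 10 genes. This average was -0.41, 0.30 and -0.05 in Llgl cKO Trp53 het, 0.06, -0.38 and 0.17 in Llgl cKO, 0.32, 0.21 and -0.36 in Trp53 het, and 0.29, 0.15 and -0.31 in control. Each genotype thus held 1 low library: Llgl cKO Trp53 het 1, Llgl cKO 2, Trp53 het 3 and control 3. In these libraries 0, 0, 1 and 2 of the 10 genes were above their own mean, against 4 to 10 in the other 8. The summed CPM of the 10 genes was 2190 to 2417 in the low libraries and 2908 to 3688 in the others.

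Several library features moved with this. The low libraries had the 4 highest TMM scaling factors (1.06 to 1.08, against 0.909 to 1.01), and the same 4 libraries were lowest without any scaling, at -0.33, -0.26, -0.26 and -0.22. Total counts did not follow it, since the shallowest libraries, control 1 with 6738720 counts and Trp53 het 2 with 6901424, were both high. Of the 4, 3 were from females and Llgl cKO 2 from a male, and the females Llgl cKO 1 and control 2 were not low. The part of sex and of library composition in the shared movement was not tested.

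Granular layer markers varied with the lipid genes over the 12 libraries (Pearson correlation of the 2 means 0.877), and so did basal markers (0.727) and spinous markers (0.555), so the movement was not that of granular markers alone. Each tested marker has equal weight in these means, also the scarce Mt4 (spinous, 0.837 to 12.1 CPM) and Flg (granular, 0.171 to 4.15 CPM). These correlations are descriptions without a test. The granular mean, on the same relative log2 scale, was -0.36, -0.03 and -0.39 in Llgl cKO Trp53 het, 0.13, -0.46 and 0.17 in Llgl cKO, 0.54, 0.30 and -0.44 in Trp53 het, and 0.53, 0.31 and -0.30 in control. The 4 low libraries of the lipid genes were also low for these markers, and Llgl cKO Trp53 het 3 was low for the markers only. In the average Llgl effect 0 of 9 tested granular markers were called, with 8 negative and a median of -0.26. RNA from a bulk tissue cannot tell fewer granular cells from less RNA per cell, and the part of the granular share in the lipid gene values was not tested.

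**Figure D3:**
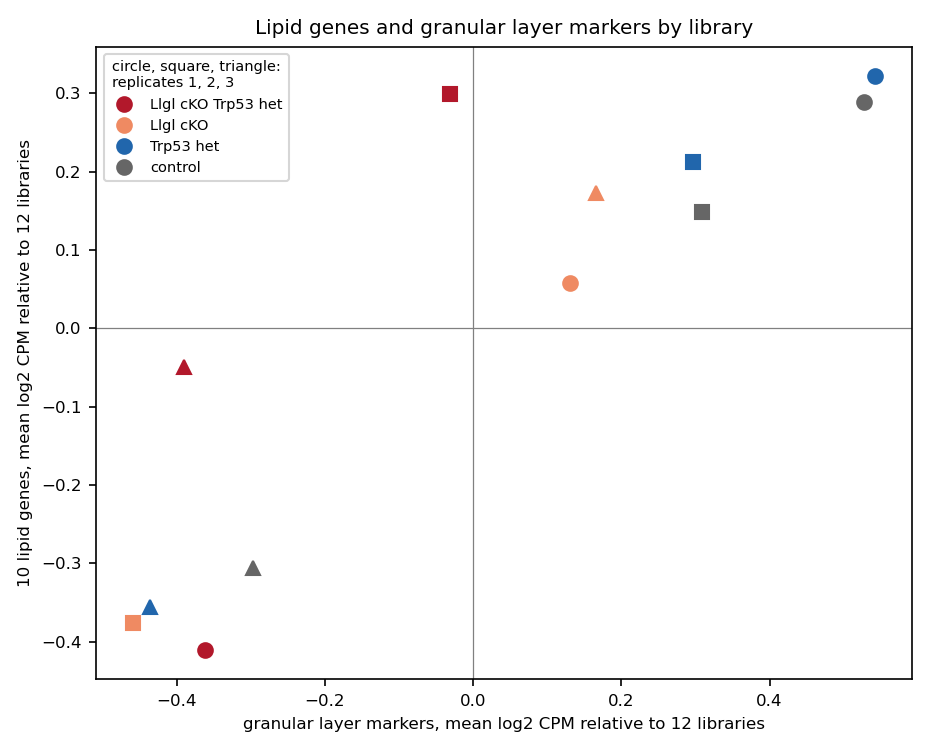
Mean relative log2 CPM of the 10 lipid genes (vertical) against that of the granular layer markers (horizontal), 1 point for each of the 12 libraries, coloured by genotype. The lowest library of each genotype for the lipid genes, from -0.41 to -0.31, also lies at -0.46 to -0.30 for the markers, and Llgl cKO Trp53 het 2 and 3 have higher lipid gene values than other libraries with like marker values.

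Over the 45 pairs of the 10 genes the median Pearson correlation of log2 CPM over 12 libraries was 0.756, and 0.877 after each genotype's mean was taken out. These points share library size and cell composition, so the values are descriptions. Elovl4 and Ugcg were the closest pair at 0.962, and Alox12b and Sdr9c7 the furthest at -0.05. Against the mean of the other 9 genes, 7 members had correlations of 0.889 to 0.939, while Abca12 was at 0.679, Sdr9c7 at 0.613 and Alox12b at 0.566. Genotype means were left in here, and a difference between genotypes can lower such a value. With each genotype's mean taken out, the lowest of the 45 pairs was at 0.598. Of 10417 other genes with a mean of at least 5 CPM and a symbol that is not a clone or predicted name, those closest to the mean of the 10 were Mfsd7c (0.959), Pdcd6ip (0.954), Gltp (0.954), Xkrx (0.953), Scpep1 (0.948), Prdm1 (0.948), Cyp2b19 (0.948) and Ube2g2 (0.947). Gltp, a glycolipid transfer protein that was also on the ceramide processing list, stood at 990.4, 1784 and 1057 CPM in Llgl cKO Trp53 het, 1290.5, 946 and 1382 in Llgl cKO, 1729.7, 1427 and 909 in Trp53 het, and 1777, 1396 and 966 in control. Its lowest library in each genotype was the low library of the lipid genes.

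Sdr9c7 and Alox12b were next taken relative to the other 9 genes of the same library, to reduce the shared movement. Each is among the other's 9 genes, so opposite shifts of Sdr9c7 and Alox12b widen the separation of both. On this log2 scale Alox12b was 0.23, 0.61 and 0.54 in Llgl cKO Trp53 het, 0.27, 0.02 and 0.30 in Llgl cKO, -0.15, -0.31 and -0.41 in Trp53 het, and -0.25, -0.54 and -0.31 in control. Sdr9c7 was -0.03, -0.20 and -0.56 in Llgl cKO Trp53 het, -0.27, -0.18 and -0.24 in Llgl cKO, 0.10, 0.11 and 0.45 in Trp53 het, and 0.11, 0.25 and 0.47 in control. The low library of each genotype had that genotype's highest value of Sdr9c7, so for this gene the shared movement was not removed. For Alox12b the low library had the lowest value in Llgl cKO Trp53 het, Llgl cKO and Trp53 het, but not in control. The shared movement was thus not fully removed for Alox12b either. For both genes the 6 libraries of the Llgl cKO groups were separate from the other 6, with Alox12b above and Sdr9c7 below. The other 8 genes overlapped, Abca12 with -0.42 to 0.10 in the Llgl cKO groups and -0.03 to 0.38 in the others. The scale was chosen after the values were seen and carries no test. Relative to the mean of the 10 genes, 1.36% of the 14572 other genes were separate in the same way. Other genes need not share the movement, and taking it from them can add spread, so that share is not a like one. In plain CPM 2.5% of all genes tested were separate for these libraries, and Alox12b and Sdr9c7 both overlapped.

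**Figure D4:**
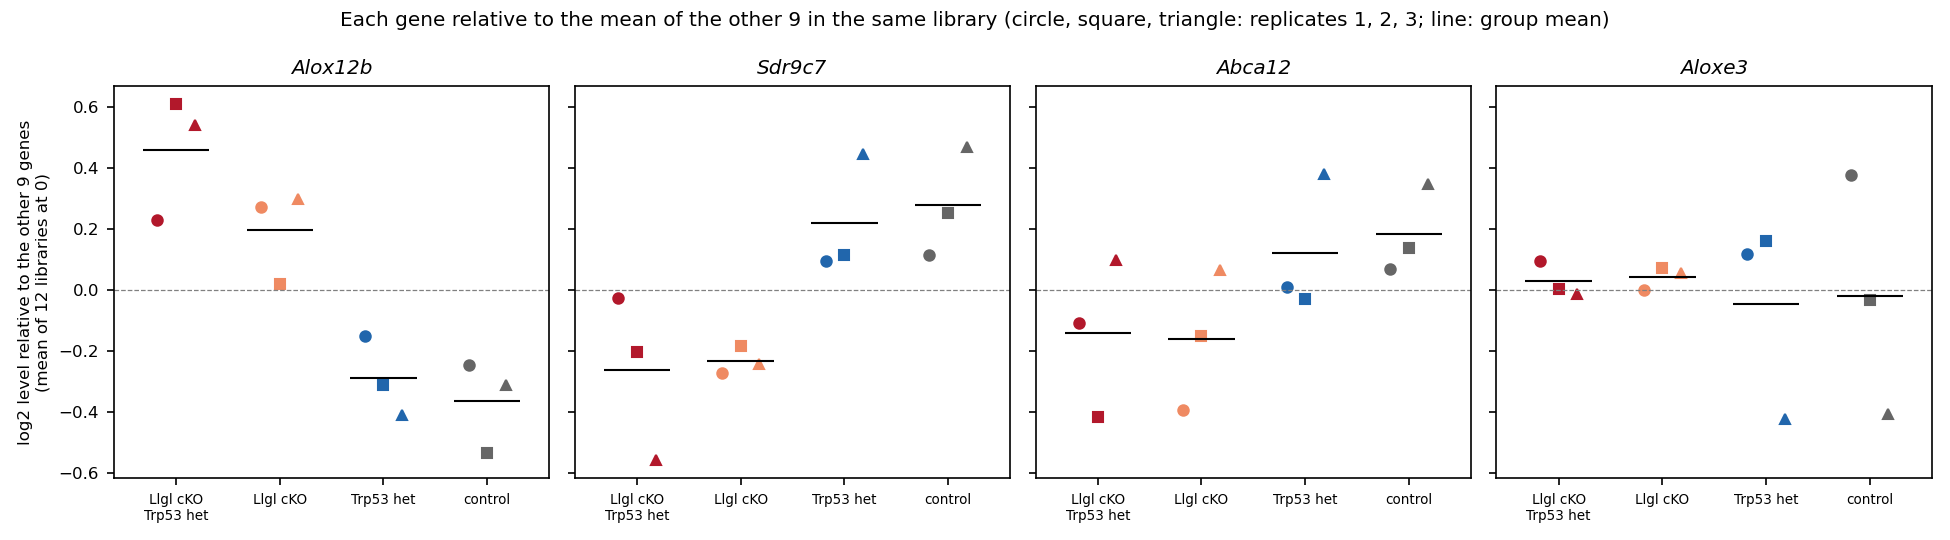
Log2 level of Alox12b, Sdr9c7, Abca12 and Aloxe3 relative to the mean of the other 9 lipid genes in the same library, centred on the 12 libraries, with a line at each group mean. Alox12b lies at 0.02 to 0.61 in the Llgl cKO groups and below 0 in the others, and Sdr9c7 lies below 0 in the Llgl cKO groups and at 0.10 to 0.47 in the others.

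The balance of the lipoxygenase pair was read from the ratio of Alox12b to Aloxe3 counts, which library scaling cannot alter. It was 1.16, 1.56 and 1.51 in Llgl cKO Trp53 het, 1.26, 1.03 and 1.24 in Llgl cKO, 0.902, 0.794 and 1.07 in Trp53 het, and 0.722, 0.780 and 1.13 in control. The ratio exceeded 1 in all 6 libraries of the Llgl cKO groups and in 2 of the other 6. Those 2, Trp53 het 3 and control 3, are low libraries of the shared pattern, and they overlap with Llgl cKO 2. Counts are not scaled to exon length, so a ratio of 1 does not mark equal levels. Per kb of annotated exon, Alox12b lay at 103.3 CPM or more and Aloxe3 at 94.2 CPM or less in every library. This ratio was also chosen after the values were seen, and it was not tested.

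Around the 10 genes, 8 lists of 77 further genes cover the neighbouring steps, and 74 of them passed the low-count filter (Alox15, Sptssb and G0s2 did not). In the average Llgl effect 1 was called higher and 7 lower, 10.8% of the 74 against 3.33% of all genes tested, and the 8 calls became 3 without Llgl cKO Trp53 het 2, Llgl cKO 1, Trp53 het 1 or control 2, each left out singly. In Llgl cKO Trp53 het against control 0 were called higher and 6 lower (8.11% against 1.25%), in Llgl cKO Trp53 het against Trp53 het 0 higher and 7 lower (9.46% against 1.36%), and in Llgl cKO against control 0 higher and 1, Acer2, lower (1.35% against 0.226%). The median log2 fold change of the 74 in the average effect was -0.02, beside -0.00 for all genes tested. The lists were chosen with earlier results of these data known.

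Acer2, a Golgi ceramidase that splits ceramide into a sphingoid base and a fatty acid, gave the clearest change. It stood at 14.8, 12.98 and 12.6 CPM in Llgl cKO Trp53 het, 12.1, 11.8 and 15.1 in Llgl cKO, 48.1, 26.9 and 38.1 in Trp53 het, and 34.2, 39.6 and 38.7 in control. Every library of the Llgl cKO groups was below every other library, and 2.5% of all genes tested were separate in the same way, in either direction. Its average Llgl effect was -1.51 on the log2 scale (SE 0.137, adjusted p = 1.76e-04, edgeR), so Acer2 fell, and it was called lower in Llgl cKO Trp53 het against control (-1.48, adjusted p = 0.00666), Llgl cKO against control (-1.53, adjusted p = 0.00535) and Llgl cKO Trp53 het against Trp53 het (-1.49, adjusted p = 0.00621). These calls held in every alternative run. Of the 10 tested genes of ceramide processing and turnover it was the 1 called, and the list's median was 0.03.

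Chain elongation genes included 2 called lower among 11 tested, with a list median of -0.16 in the average effect. Elovl6, an elongase of saturated long-chain fatty acids, stood at 121, 104 and 102 CPM in Llgl cKO Trp53 het, 118, 199 and 197 in Llgl cKO, 269, 246 and 231 in Trp53 het, and 195, 229.7 and 199.6 in control. Llgl cKO Trp53 het lay below every Trp53 het and control library, Llgl cKO 1 lay among its values, and Llgl cKO 2 and 3 reached the control range. In Llgl cKO against control the log2 fold change of Elovl6 was -0.28 (adjusted p = 0.919, edgeR). Its average Llgl effect was -0.73 (SE 0.129, adjusted p = 0.0147, edgeR), called in all 21 alternatives. Elovl3, an elongase known from sebaceous gland and hair follicle lipids in mice, stood at 9.42, 5.04 and 2.09 CPM in Llgl cKO Trp53 het, 14.8, 33.4 and 16.03 in Llgl cKO, 38.2, 30.7 and 23.7 in Trp53 het, and 29.9, 32.7 and 19.7 in control, with an average effect of -1.41 (SE 0.326, adjusted p = 0.0413) that was lost in 9 of 21 alternatives. In Llgl cKO against control the log2 fold change of Elovl3 was -0.35 (adjusted p = 0.984, edgeR).

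Of 12 tested genes of sphingoid base and ceramide synthesis 2 were called lower and 1 higher, with a median of -0.02. Cers4, a ceramide synthase for long acyl chains, stood at 20.2, 11.3 and 8.29 CPM in Llgl cKO Trp53 het, 26.1, 44.1 and 28.8 in Llgl cKO, 47.8, 40.6 and 48.6 in Trp53 het, and 35.3, 45.7 and 38.9 in control. Fa2h, the hydroxylase that makes 2-hydroxy fatty acids for ceramides, stood at 9.81, 5.38 and 1.84 CPM in Llgl cKO Trp53 het, 20.4, 54.3 and 25.01 in Llgl cKO, 77.9, 41.4 and 33.7 in Trp53 het, and 46.6, 48.3 and 31.1 in control. Both were lowest in Llgl cKO Trp53 het, and Llgl cKO 2 was inside the range of the other genotypes. The average Llgl effects were -1.03 for Cers4 (SE 0.204, adjusted p = 0.0218, edgeR) and -1.75 for Fa2h (SE 0.381, adjusted p = 0.0317), lost in 5 and 9 of 21 alternatives. In Llgl cKO against control the log2 fold changes were -0.28 for Cers4 (adjusted p = 0.972) and -0.33 for Fa2h (adjusted p = 0.986). In Llgl cKO Trp53 het against Llgl cKO, DESeq2 called Fa2h (adjusted p = 0.00419), Cers4 (0.0124) and Elovl3 (0.0151) lower, against 0.364% of all its genes. There edgeR called none of them (adjusted p = 0.668 for each), and neither method called their interaction. Cers5, a ceramide synthase for shorter acyl chains that is named outside the naming rule after its values were seen, was at 53.5 ± 0.825 CPM in Llgl cKO Trp53 het, 51.05 ± 4.26 in Llgl cKO, 42.2 ± 2.15 in Trp53 het, against 41.8 ± 3.15 in control (SD, n = 3 each). Its average effect was 0.32 (SE 0.0719, adjusted p = 0.0373), lost in 12 of 21 alternatives.

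In triacylglycerol turnover 1 of 7 tested genes was called. Plin2, a protein that coats lipid droplets, stood at 24.3, 24.3 and 16.9 CPM in Llgl cKO Trp53 het, 32.3, 38.8 and 26.5 in Llgl cKO, 57.2, 50.7 and 39.97 in Trp53 het, and 68.02, 50.8 and 38.4 in control. Llgl cKO Trp53 het lay below every Trp53 het and control library, and Llgl cKO 2 just overlapped control 3. Its average Llgl effect was -0.93 (SE 0.164, adjusted p = 0.0151, edgeR), called in all 21 alternatives. Among 11 tested genes of envelope attachment and late barrier enzymes, Ivl was called. Ivl encodes involucrin, a cornified envelope protein to which acylceramides are attached, and stood at 311, 355 and 241 CPM in Llgl cKO Trp53 het, 478, 275 and 377 in Llgl cKO, 706, 715 and 432 in Trp53 het, and 916, 625 and 465 in control. Its average effect was -0.93 (SE 0.205, adjusted p = 0.0317, edgeR), lost in 10 of 21 alternatives, and its lowest control and Trp53 het libraries were the low libraries of the shared pattern.

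By edgeR no call was made in the average Llgl effect among 5 tested genes of lamellar granule delivery, 4 other lipoxygenases and 14 barrier transcription factors, with medians of -0.06, 0.08 and 0.11. Vdr, the vitamin D receptor, was called lower by edgeR in Llgl cKO Trp53 het against Trp53 het (log2 fold change -0.93, adjusted p = 0.0471, lost in 10 of 22 alternatives) and in no other comparison. DESeq2 also called it lower in Llgl cKO Trp53 het against control (adjusted p = 0.0258) and in the average Llgl effect (adjusted p = 0.00850), where edgeR gave adjusted p of 0.115 and 0.0571. It averaged 86.3 ± 6.29 CPM in Llgl cKO Trp53 het, 128 ± 37.8 in Llgl cKO, 164 ± 18.7 in Trp53 het, against 141 ± 13.5 in control (SD, n = 3 each).

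Appendage markers were also lowest in Llgl cKO Trp53 het. Summed sebaceous gland markers were at 94.8 to 141 CPM in Llgl cKO Trp53 het, 193 to 229 CPM in Llgl cKO, 192 to 264 CPM in Trp53 het and 175 to 218 CPM in control, and 4 of 9 tested were called lower in the average Llgl effect. Summed hair shaft and inner root sheath markers were at 138 to 478 CPM in Llgl cKO Trp53 het, 1070.3 to 3492 CPM in Llgl cKO, 2273 to 5771 CPM in Trp53 het and 1555 to 7165 CPM in control, and 10 of 12 tested were called lower. Both adipocyte markers tested and 2 of 8 T cell markers were also called lower. The 5 listed adipocyte markers summed to 0.335 to 0.769 CPM in Llgl cKO Trp53 het. Their sums were 1.67 to 3.57 CPM in Llgl cKO, 2.86 to 17.4 in Trp53 het and 2.02 to 29.1 in control. Of 7 spinous markers 1 was called lower, Mt4, which stood at 0.837 to 12.1 CPM, while 0 of 8 basal markers were called. Over all genes tested 3.33% were called in the average Llgl effect, in both directions. In Llgl cKO the summed sebaceous and hair markers overlapped those of control. In that comparison 7 of 9 sebaceous markers (median log2 fold change -0.32) and 11 of 12 hair markers (-1.56) were negative, none called. All 8 T cell markers were negative there (median -1.16) and in Llgl cKO Trp53 het against Trp53 het (-1.68). Acer2 was low in both Llgl cKO groups. The part of these cell types in the changes of Elovl3, Cers4, Fa2h, Elovl6, Plin2 and Acer2 was not tested.

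**Figure D5:**
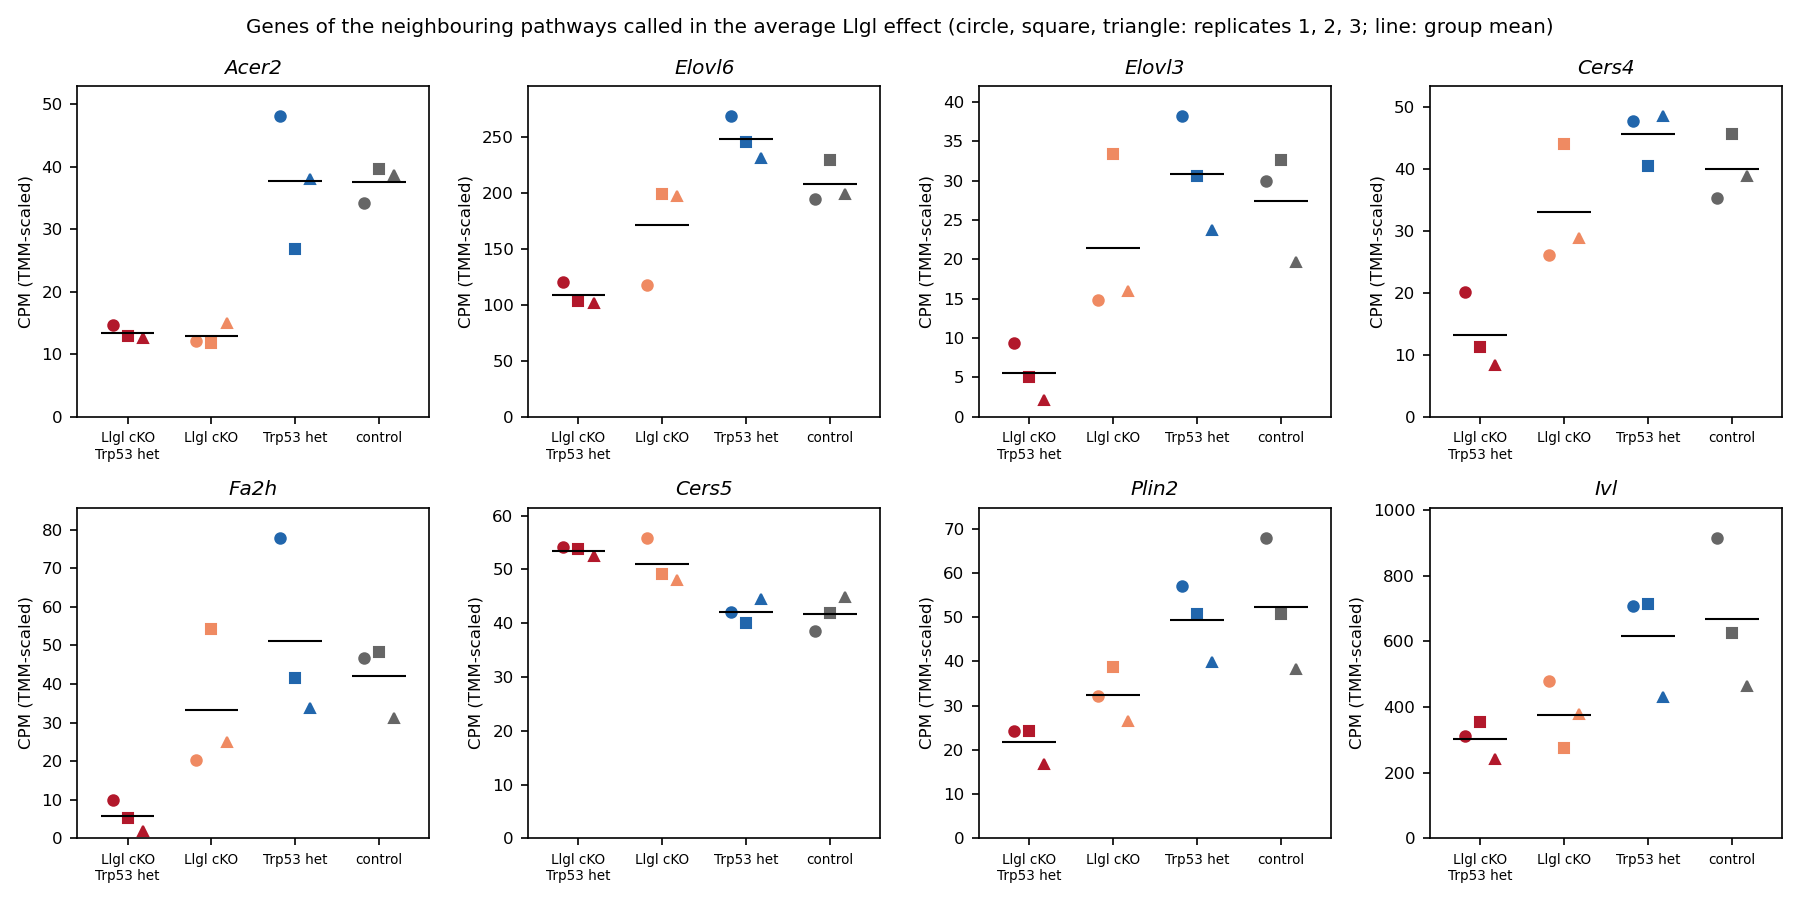
CPM of the 8 genes of neighbouring pathways called in the average Llgl effect, in each of the 12 libraries by genotype, with a line at each group mean and a separate vertical axis from 0. Acer2 lies at 11.8 to 15.1 CPM in both Llgl cKO groups and 26.9 to 48.1 CPM in the others, and Elovl3, Cers4 and Fa2h are lowest in Llgl cKO Trp53 het.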

How the data were processed

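Polyadenylated RNA of newborn mouse epidermis was sequenced from TruSeq stranded libraries, per the labels' protocols. The submitters' processing notes name STAR, featureCounts 1.6.4, DESeq2 2.11.40.8 and GRCm38. Annotation release, strand setting and filters are not given in the sources used here. The authors deposited raw counts per gene for 46078 genes, with no normalization. Of the identifiers 45143 matched the GRCm38 annotation (GENCODE) that gave positions and lengths.

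The analysis used edgeR 4.0.16 in R 4.3.3, with filterByExpr (minimum count 10), TMM scaling, and a robust quasi-likelihood model with a mean per genotype over 12 libraries (8 residual degrees of freedom, common biological coefficient of variation 23.8%). P-values were Benjamini-Hochberg adjusted over the 14582 genes tested and measure the spread between these mice. The edgeR test of the average Llgl effect was also run on simulated counts. Genes varied independently there, so that run does not cover the shared movement seen in these libraries. The alternatives were DESeq2 1.42.0, other scalings and filters, a replicate block, the compared groups alone, and libraries left out. Sex as a term and the removal of Trp53 het 3 with Llgl cKO Trp53 het 1 were chosen after seeing the data.

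The members and all gene lists were chosen with earlier results of these data known. Named genes were the 10 members, Llgl1, Llgl2 and Trp53, up to 2 called genes of each pathway list and comparison by smallest p, and the 8 genes most correlated with the members' mean. Same-numbered control and Trp53 het libraries deviated together (correlations of 0.62, 0.21 and 0.82 across genes), although the labels name no pairing and no shared batch. In the other pairs of groups this did not hold for every number. No pairing entered the main model, and the replicate block was run as an alternative.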

Additional observations from a re-analysis of the deposited data

How the results depend on the processing

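In 7 comparisons 0 of the 10 genes were called by edgeR and under every alternative run, the replicate block included. In the average Llgl effect the count was 0 and became 1, Sdr9c7, with DESeq2, upper-quartile scaling, sex as a term, and without control 3 and Trp53 het 3 together. Leaving out 1 library at a time gave 0 to 1, with 1 without control 3, Trp53 het 3 or Llgl cKO Trp53 het 2. The cause was not tested. With the replicate block the average Llgl effect had 0 of 10 called, and no member's call changed in any comparison. Of 1730 recomputed values of the members 1723 kept their side of the threshold, 7 passed it and 0 were lost, while 209 uncalled values changed sign.

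Of the 77 pathway genes, the 8 called in the average Llgl effect became 3 without Llgl cKO Trp53 het 2, Llgl cKO 1, Trp53 het 1 or control 2, 4 without Llgl cKO Trp53 het 3, Llgl cKO 3, Trp53 het 2 or control 1, 5 with no low-count filter and 14 without control 3 and Trp53 het 3 together. In Llgl cKO Trp53 het against control the 6 became 1 without Llgl cKO Trp53 het 2 or 3, Trp53 het 2, control 1 or control 2, 2 with the compared groups alone and 10 without control 3 and Trp53 het 3. In Llgl cKO Trp53 het against Trp53 het the 7 became 1 without Llgl cKO Trp53 het 2 or 3 or Trp53 het 1 or 2, 4 without control 1, and 3 without control 2 or with the compared groups alone. In Llgl cKO against control the 1 became 3 without control 3 and Trp53 het 3. Depth did not limit the members, which had at least 612 counts in each library. With 3 mice a group, the 95% intervals of single comparisons spanned changes of either sign for most members.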
